A study of Homo sapiens with 6 samples.

Results

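The genes described here are those that the authors' deposited table of log ratios, made from MDA-MB-231 cells with LOXL2 knocked down or not, annotates as an enzyme located in the cytoplasm. Of its 724 entries, 59 carry both annotations. The rule leaves out 6 of these by name, BIRC3, SOD2, PTGS2, GBP2, NQO1 and UBE2C, which leaves 53 entries of 52 genes. VARS has a pair of entries with the same value. The table lists no entry smaller than 0.537 in size, so its genes were selected on the same contrast that their values describe. No value below is therefore a test of the enzymes, and directions are given as listed.

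MDA-MB-231 is a widely used human cell line from a triple-negative breast carcinoma. The shLOXL2 cells had received a lentivirus with a short hairpin against LOXL2, a secreted lysyl oxidase (3 arrays), and the shControl cells one with a control hairpin (3 arrays). Cells of both groups were thus infected and carried a hairpin, and the labels do not say whether the arrays of a group came from separate cultures. The titles and the knockdown field of shControl replicates 2 and 3 give the control hairpin, but their source name gives the other one. The design sets LOXL2 knockdown against control infection.

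LOXL2 itself stood at -3.04, the lowest entry of the authors' deposited table, which is the basis for reading every ratio there as shLOXL2 over shControl. The direction is therefore likely and not stated in the file, and the log base is not stated either. If it is log2, the smallest entry of the authors' deposited table, 0.537, is a 1.45-fold difference. On the 6 arrays, 32321 probe sets were measured, none paired with a gene in the sources used here, so no enzyme can be given array by array and none has a replicate error. By limma, 1 probe set (0.00309%) passed an adjusted p of 0.05, and 0 did when any 1 of the 6 arrays was left out (1063 to 2250 at an unadjusted p under 0.05). An unadjusted p under 0.05 was found for 1781 (5.51%), and for 2964 with the replicate number as a block. Array differences of 0.537 or more were found for 1322 probe sets, 4.09% of all. Of the 588 probe sets that differed by 0.537 to 0.65, the range that holds 26 of the 52 enzymes if the scale is log2, 47.8% had an unadjusted p under 0.05 and the median standard error was 0.254. With the replicate block these were 76.7% and 0.176. Of the 142 that differed by 1 or more, the range of 3 enzymes, 70.4% had one, and the median standard error was 0.384. With the block these were 90.1% and 0.275. The probe sets in these ranges were picked by the same difference, so large shares follow from that choice and are no support for the enzymes. Without shLOXL2 replicate 2 or shControl replicates 2 or 3, the number of probe sets of at least 0.537 was 2158, 2003 and 2114. With shControl replicate 1 as the only control array, which leaves out those whose source name differs, it was 4897, and limma called 0 at an adjusted p of 0.05 and 3975 at an unadjusted one. The enzymes' own values cannot be given without these arrays. Of 10 mesenchymal and 10 epithelial markers looked up for the line, the authors' deposited table held CAV1, a caveola protein, at -0.98 and EPCAM, an epithelial adhesion molecule, at 0.63, and none of 7 markers of blood, endothelial and stromal cells. A ratio gives no level, so the identity of the line was not tested by these.

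Cytoplasmic enzymes in the sense of this annotation cover the cytosol and the organelles. Mitochondrial respiratory complexes pass electrons from NADH to oxygen, the cytosol makes sugar phosphates, lipids and charged transfer RNAs, the endoplasmic reticulum and Golgi build glycans, and the ubiquitin cascade of activating, conjugating and ligating enzymes marks proteins for degradation. Small GTPases switch vesicle traffic and signalling on and off. Breast cancer cells of the mesenchymal kind are known for altered use of several of these routes, among them lipid peroxide defence and tryptophan breakdown. Some genes under the annotation are not enzymes in the strict sense. COX17 is a copper chaperone, GM2A is a lipid-presenting cofactor, and CCDC92 is a coiled-coil protein.

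Of the 52 genes, 28 (53.8%) were listed higher and 24 (46.2%) lower in shLOXL2 cells in the authors' deposited table. Over all 651 genes with an annotated type and entries of 1 sign there, 57.5% were listed higher and 42.5% lower. That contrast chose the genes, so nothing is read from these shares. The median size was 0.65 for the enzymes and 0.651 for the whole list in the authors' deposited table. Enzymes at other locations were listed higher in 18 of 26 cases (69.2%) there, and cytoplasmic genes of other types in 71 of 130 (54.6%). All 6 cytoplasmic enzymes left out by the rule were listed higher in the authors' deposited table. Counted with them, 34 enzymes were listed higher and 24 lower. The pathway groups below were formed after the values were seen, so a side shared within a group is a description.

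COX7C stood apart from the other enzymes. It ranked 2 of 724 entries in the authors' deposited table, at 1.57, which is 0.646 above the next enzyme, KYNU. At the low end, GALNT1 (-1.21) and FARSB (-1.03) ranked 11 and 24 from the bottom of the authors' deposited table. The other 49 genes lay between -0.92 and 0.92 there. The enzymes closest to the limit of the list on each side were TGM2 at -0.539 and UBE2G1 at 0.547 in the authors' deposited table. Values smaller in size than the limit are not listed there.

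**Figure D1:**
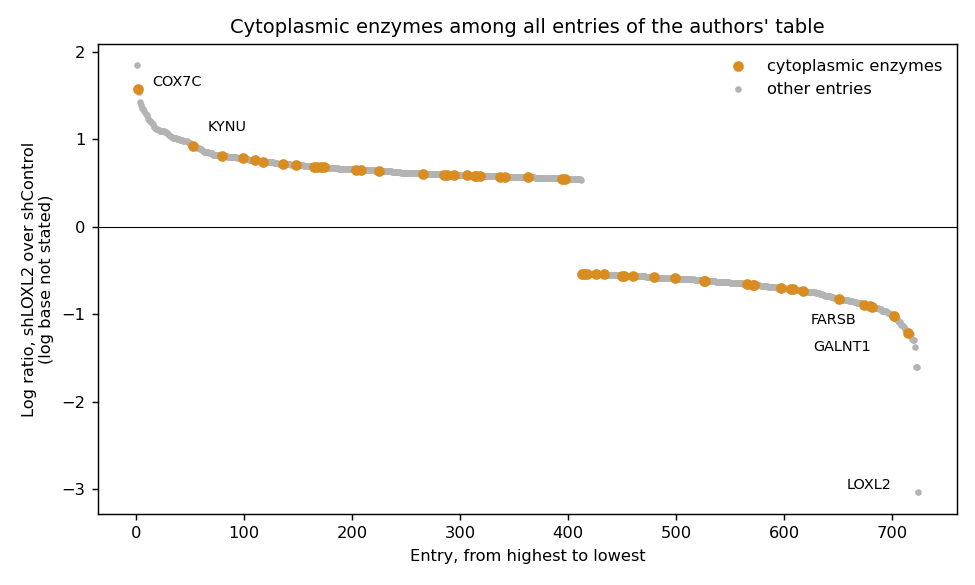
All 724 entries of the authors' deposited table in falling order (x axis, entry; y axis, log ratio, shLOXL2 over shControl, log base not stated), with cytoplasmic enzymes in orange. Enzymes lie along both arms, COX7C near the top at 1.57 and GALNT1 near the bottom at -1.21, and the gap around 0 is the limit of 0.537 below which nothing is listed.

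Electron transport supplied the highest enzyme and 3 more genes listed higher. COX7C, a small nuclear-encoded subunit of cytochrome c oxidase (complex IV), had 1.57 in the authors' deposited table. COX5B, another subunit of that complex, had 0.58, and COX17, which hands copper to it during assembly, had 0.57 in the authors' deposited table. NDUFA2, an accessory subunit of NADH dehydrogenase (complex I), had 0.74 there. The one gene of the group listed lower in the authors' deposited table was COQ5, a methyltransferase of coenzyme Q synthesis, at -0.54. Of 84 genes of the respiratory chain and ATP synthase, the authors' deposited table held 3, each of them higher, with a median of 0.74. COX17 and COQ5 are not in that list of complex subunits. The remaining subunits of that list had no listed value. Outside it and the membership, COXFA4L3 (0.97) and CMC2 (-1.22), both related to cytochrome c oxidase, had entries with opposite signs. Nothing can be read here about the respiratory chain as a whole. RefSeq names 4 pseudogenes of COX7C and 8 of COX5B, and the array probes for these genes were not checked against them.

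Because these 4 genes were listed on the same side, their RefSeq promoters (GRCh38.p14, 250 bases before to 50 after the annotated start) were searched on both strands. Capitals mark the Ets core CCGGAA, the NRF1 core GCGCATGC and the CCAAT box, motifs of general activators of which Ets and NRF1 factors are known at respiratory genes.
COX7C, chr5:86617691-86617990, plus strand: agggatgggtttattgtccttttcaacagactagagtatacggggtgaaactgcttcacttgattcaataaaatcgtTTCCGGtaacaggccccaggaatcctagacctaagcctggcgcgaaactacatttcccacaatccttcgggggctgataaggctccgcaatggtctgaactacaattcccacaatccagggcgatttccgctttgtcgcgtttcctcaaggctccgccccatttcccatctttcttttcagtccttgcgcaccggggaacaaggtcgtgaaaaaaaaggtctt
NDUFA2, chr5:140647581-140647880, minus strand: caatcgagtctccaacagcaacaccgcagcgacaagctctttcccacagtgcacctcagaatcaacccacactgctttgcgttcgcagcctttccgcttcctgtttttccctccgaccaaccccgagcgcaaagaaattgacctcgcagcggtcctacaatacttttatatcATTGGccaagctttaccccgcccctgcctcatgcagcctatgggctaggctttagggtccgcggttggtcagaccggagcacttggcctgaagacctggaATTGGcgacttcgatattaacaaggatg
COX5B, chr2:97645812-97646111, plus strand: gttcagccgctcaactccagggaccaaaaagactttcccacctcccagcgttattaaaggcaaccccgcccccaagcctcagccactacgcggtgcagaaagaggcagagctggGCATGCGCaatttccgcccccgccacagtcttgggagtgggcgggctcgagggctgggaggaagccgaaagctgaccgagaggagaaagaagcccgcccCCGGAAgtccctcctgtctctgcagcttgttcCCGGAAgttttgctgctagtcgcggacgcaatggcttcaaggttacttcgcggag
COX17, chr3:119677357-119677656, minus strand: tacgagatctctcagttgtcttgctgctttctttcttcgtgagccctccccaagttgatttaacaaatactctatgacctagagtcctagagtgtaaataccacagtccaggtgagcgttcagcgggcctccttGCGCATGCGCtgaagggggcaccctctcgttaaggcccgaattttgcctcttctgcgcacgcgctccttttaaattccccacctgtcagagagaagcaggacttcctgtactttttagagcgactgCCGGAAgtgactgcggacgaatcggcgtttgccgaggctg

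The Ets core was found in 3 of these 4 promoters, COX7C with 1 match, COX5B with 2 and COX17 with 1, while 17.6% of all 27305 promoters and 22.9% of the 15843 protein-coding ones hold it. The NRF1 core was in COX5B with 1 match and in COX17 with 2 that overlap by 6 bases, against 3.27% of all promoters and 4.26% of the protein-coding ones. COX7C and NDUFA2 had no such match in this window. COQ5, the gene of the group listed lower, had neither an Ets nor an NRF1 match. The 4 genes were picked by their listed side, so these counts are a description. NDUFA2 held 2 CCAAT boxes, a motif of 35.7% of all promoters and 36.4% of the protein-coding ones. These are matches of letters and not measured sites.

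All 4 enzymes of glucose phosphates and nucleotide sugars, a group formed after the values were seen, were listed higher. Of the 6 cytoplasmic enzymes of glycans and GPI anchors, 1 was listed higher and 5 lower. PGM1, which interconverts glucose phosphates, had 0.70 in the authors' deposited table. UGP2, which makes UDP-glucose, had 0.68 there. GNPDA1, which returns glucosamine phosphate to glycolysis, had 0.81 in the authors' deposited table. Of 43 genes of glycolysis and linked sugar phosphate routes, PGM1 was among those with an entry in the authors' deposited table. No gene of the list from hexokinase to lactate dehydrogenase was among its entries.

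GALNT1, the transferase that starts mucin-type O-glycans, had the lowest value of any cytoplasmic enzyme in the authors' deposited table, -1.21. MAN2A1, a Golgi mannosidase that trims N-glycans, had -0.72 there. CHST11, which sulphates chondroitin, had -0.67, and EXTL2, a transferase of the heparan sulphate linkage region, had -0.58 in the authors' deposited table. PIGS, a subunit of the transamidase that attaches GPI anchors, stood at -0.91 there. B4GALT1, which adds galactose to N-glycans, was the exception at 0.58 in the authors' deposited table. Of 85 glycosylation genes, the authors' deposited table held 7, of which 3 were higher and 4 lower, with a median of -0.58. The 2 that are no members, MGAT4A (0.58) and B3GNT5 (0.65), are transferases whose location the authors' deposited table gives as unknown. Both stood on the higher side, so the list as a whole was mixed. Outside that list, DSEL (-0.753) and DOLK (0.675), both related to glycan synthesis, had entries with opposite signs.

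Redox enzymes and oxygenases were listed higher in 4 of 5 cases. GPX4, the glutathione peroxidase that reduces lipid hydroperoxides, had 0.68 in the authors' deposited table. DHRS3, a retinaldehyde reductase, had 0.76 there. CYB5A, an electron carrier of the endoplasmic reticulum, had 0.68 in the authors' deposited table. AOX1, a molybdenum-dependent aldehyde oxidase, had -0.74 there. Of 52 genes of glutathione, thioredoxin and antioxidant metabolism, the authors' deposited table held 4, each of them higher, with a median of 0.72. GPX4 was the single member among them, and GPX3, a secreted peroxidase, had 0.79 in the authors' deposited table. The catalytic and modifier subunits of glutathione synthesis and the thioredoxin reductases were not among its entries.

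Both tryptophan-degrading enzymes of the group were listed higher. IDO1 opens the tryptophan ring and feeds the kynurenine pathway, and KYNU cleaves kynurenine further along it. KYNU had 0.92, the next highest enzyme after COX7C, and IDO1 had 0.55 in the authors' deposited table. They were the 2 of 60 genes of amino acid and one-carbon metabolism listed there. IDO1 is known as an interferon-induced gene, as are GBP4 and IFI30, which had 0.78 and 0.65 in the authors' deposited table. Of these, the promoter of GBP4 held the interferon element searched, GAAANNGAA, and IFI30 had no match. The element is in 8.29% of all promoters and 7.06% of the protein-coding ones. IDO1 has no entry in the promoter table.

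**Figure D2:**
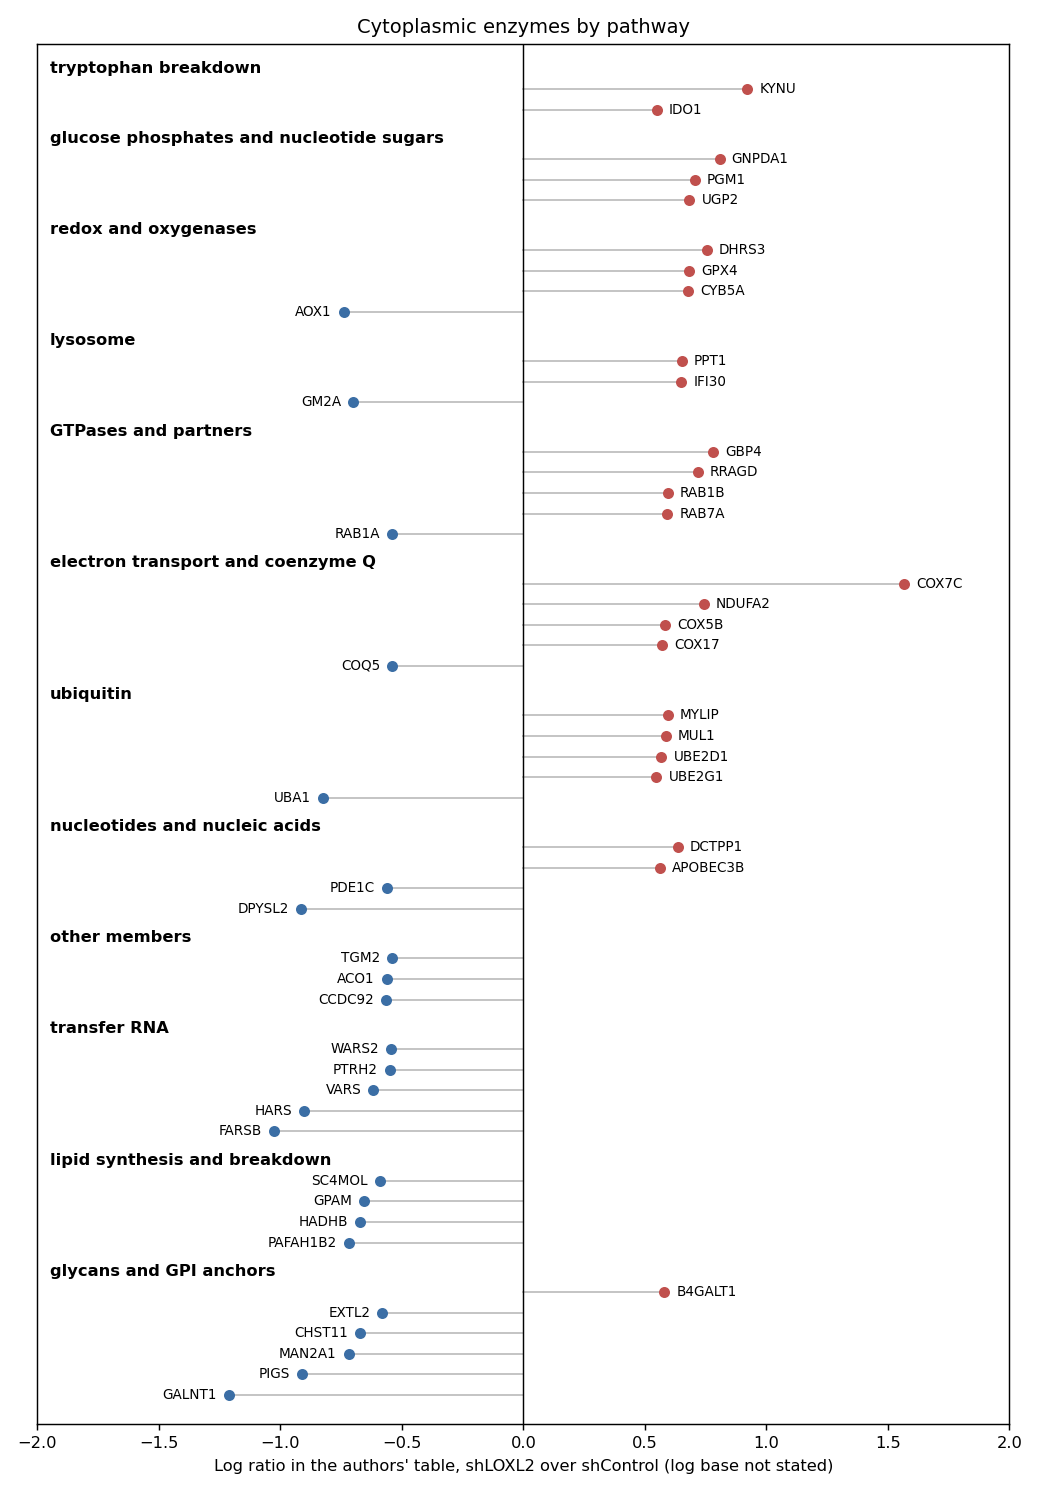
Log ratio of 49 of the 52 genes in the authors' deposited table (x axis, shLOXL2 over shControl, log base not stated), grouped by pathway, red where listed higher and blue where listed lower; names are those of the table, where SC4MOL is MSMO1, VARS is VARS1 and HARS is HARS1. Sugar phosphate and tryptophan enzymes lie to the right, from 0.548 to 0.921, and transfer RNA and lipid enzymes to the left, from -1.03 to -0.55.

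Lipid enzymes, a group formed after the values were seen, were listed lower in all 4 cases. GPAM, the mitochondrial acyltransferase at the start of glycerolipid synthesis, had -0.66 in the authors' deposited table. HADHB, the thiolase subunit of the mitochondrial trifunctional protein of fatty acid oxidation, had -0.67 there. MSMO1 (SC4MOL in the file), a sterol oxidase of cholesterol synthesis, had -0.59, and PAFAH1B2, a catalytic subunit of an acetylhydrolase of platelet-activating factor, had -0.72 in the authors' deposited table. These genes act in synthesis, oxidation and signalling lipids, so the shared side is not that of 1 pathway. Of 22 cholesterol genes, MSMO1 was the single one in the authors' deposited table. Outside that list, INSIG1 (0.81) and ERG28 (0.56), both related to sterol synthesis, had entries on the opposite side from MSMO1. Of 46 fatty acid genes there were 2, HADHB and the elongase ELOVL7 at 0.60, with opposite signs in the authors' deposited table. Of 48 glycerolipid genes, GPAM and the monoglyceride lipase MGLL, at -0.63, had entries in the authors' deposited table, each on the lower side. None of 30 sphingolipid genes was among its entries.

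Genes of the lysosome were split. PPT1, which removes palmitate from proteins, had 0.65 and IFI30, a thiol reductase of antigen processing, had 0.65 in the authors' deposited table. GM2A, which presents a ganglioside to its hydrolase, had -0.70 there.

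All 5 genes of transfer RNA charging and recycling, a group formed after the values were seen, were listed lower. FARSB, the beta subunit of the cytosolic phenylalanyl-tRNA synthetase, had -1.03 in the authors' deposited table. HARS1, the histidyl-tRNA synthetase, had -0.90 there. VARS1, the valyl-tRNA synthetase, had -0.62 in both of its entries, and WARS2, the mitochondrial tryptophanyl-tRNA synthetase, had -0.55 in the authors' deposited table. PTRH2, a hydrolase that frees transfer RNA from stalled peptides, had -0.55 there. Of 37 aminoacyl-tRNA synthetases, the authors' deposited table held 4 (10.8%), each of them lower, with a median of -0.76. For comparison, 4.73% of all 1037 genes of the 21 chosen pathway lists were in it, 31 listed higher and 18 lower. The share was 11.1% for the antiviral enzymes, 8.24% for glycosylation, 7.79% for ubiquitin and 7.69% for antioxidant genes. No entry was found for the other synthetases.

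The promoters of the synthetases, where RefSeq lists one, are shown with the same capitals as above, since these genes were also listed on a single side. VARS1 has no entry in the promoter table.
HARS1, chr5:140691321-140691620, minus strand: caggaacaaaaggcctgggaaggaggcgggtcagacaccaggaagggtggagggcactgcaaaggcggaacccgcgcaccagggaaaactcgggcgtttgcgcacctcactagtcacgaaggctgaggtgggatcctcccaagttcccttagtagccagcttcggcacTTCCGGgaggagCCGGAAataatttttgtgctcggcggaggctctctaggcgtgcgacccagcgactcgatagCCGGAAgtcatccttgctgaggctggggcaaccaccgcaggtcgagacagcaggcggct
FARSB, chr2:222656043-222656342, minus strand: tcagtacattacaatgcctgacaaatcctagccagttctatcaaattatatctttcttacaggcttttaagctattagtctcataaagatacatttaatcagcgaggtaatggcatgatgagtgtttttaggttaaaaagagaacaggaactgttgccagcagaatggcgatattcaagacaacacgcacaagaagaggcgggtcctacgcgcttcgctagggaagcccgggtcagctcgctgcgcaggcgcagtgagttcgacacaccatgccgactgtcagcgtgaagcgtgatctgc
WARS2, chr1:119140623-119140922, minus strand: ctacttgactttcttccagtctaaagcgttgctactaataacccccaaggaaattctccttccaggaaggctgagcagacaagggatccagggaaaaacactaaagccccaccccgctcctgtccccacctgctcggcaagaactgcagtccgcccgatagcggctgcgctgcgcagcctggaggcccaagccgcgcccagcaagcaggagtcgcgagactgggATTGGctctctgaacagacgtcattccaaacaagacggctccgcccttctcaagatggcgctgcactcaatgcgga

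HARS1 held 3 matches of the Ets core and WARS2 1 CCAAT box, while FARSB held none of these motifs. The element TGATGNAA, bound by the amino acid stress factor ATF4, which is known at several synthetase genes, was in none of the 42 promoters of cytoplasmic enzymes that the table holds. It is in 3.67% of all promoters and 2.53% of the protein-coding ones. The Ets core was thus in promoters of genes from either side of the list.

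**Figure D3:**
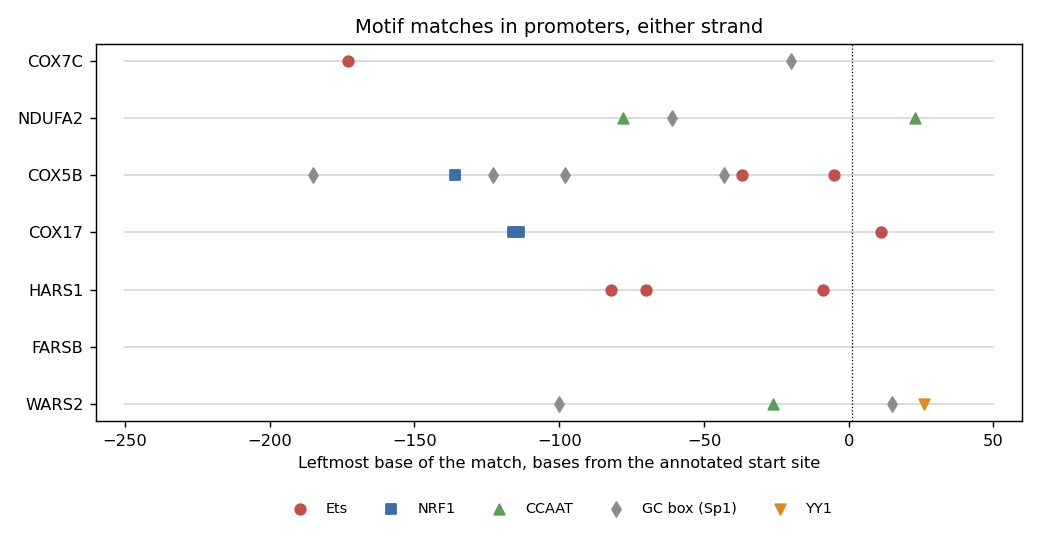
Matches of 5 motifs in the promoters of the electron transport and synthetase genes, as the leftmost base of each match relative to the annotated start (x axis, bases; dotted line, start). Ets matches (circles) appear in COX7C, COX5B, COX17 and HARS1, NRF1 matches (squares) in COX5B and COX17, and FARSB has none of the motifs.

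Of the 5 ubiquitin enzymes, 4 were listed higher and 1 lower. UBA1, the main E1 enzyme that activates ubiquitin, had -0.83 in the authors' deposited table. The conjugating enzymes UBE2D1 and UBE2G1 had 0.57 and 0.55 there. The ligases MYLIP, which targets the LDL receptor, and MUL1, of the mitochondrial outer membrane, had 0.59 and 0.58 in the authors' deposited table. Of 77 genes of ubiquitin and ubiquitin-like conjugation, the authors' deposited table held 6, with UBA1 lower and the other 5 higher. Outside the membership these were BIRC3, UBE2C and UBE2S. Of them, UBE2C and UBE2S act in mitotic degradation, at 0.66 and 0.63 (mean of its entries) in the authors' deposited table. MYLIP and MUL1 are not in that list. Other ligase genes outside it had entries on both sides, among them RNF5 (0.58), MARCHF8 (0.73), RNF168 (-0.61) and RC3H2 (-0.69).

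GTPases and their partners were listed higher in 5 of 6 cases. RAB1A and RAB1B, close relatives that both direct traffic between endoplasmic reticulum and Golgi, had opposite signs, -0.54 and 0.59 in the authors' deposited table. RAB7A, of late endosomes, had 0.59 there. RRAGD, which signals amino acids to mTORC1 at the lysosome, had 0.72 in the authors' deposited table. GBP4, a guanylate-binding protein, had 0.78 there. The Rab genes were the 3 with an entry among the 107 small GTPases of the list used. RRAGD and IFT22 (0.54), a Rab-like gene, had entries in the authors' deposited table but are not in that list. An entry named RAB1C (0.57) was not counted there either.

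The remaining genes had no common side. DCTPP1, which hydrolyses dCTP, had 0.64 and APOBEC3B, a cytidine deaminase of single-stranded DNA, had 0.56 in the authors' deposited table. PDE1C, a calmodulin-dependent phosphodiesterase, had -0.56 and DPYSL2, a relative of dihydropyrimidinase that binds tubulin, had -0.92 there. ACO1, the cytosolic aconitase that doubles as an iron regulatory protein, had -0.56 in the authors' deposited table. TGM2, a transglutaminase that crosslinks proteins, and CCDC92 had -0.54 and -0.57 there.

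No identifier of the 724 in the authors' deposited table contains the letters NA next to each other, and 18 of its 30 entries without a type match no RefSeq name. The 20 list genes whose names contain these letters could therefore not be found, among them 9 of the large and other GTPases, 6 glycosylation genes and 2 synthetases, and the counts of those lists may miss entries. The lists not yet described had few entries. ACO1 was the single entry of 35 citric acid cycle and pyruvate genes in the authors' deposited table, and DHRS3 that of 51 dehydrogenases, aldo-keto reductases and cytochromes P450. PDE1C was the single entry of 33 cyclic nucleotide genes there. Of 49 large and other GTPases, GBP4 and GBP2 were the ones matched by name in the authors' deposited table, both on the higher side. The entries GI2 (-0.556) and GQ (-0.944) would read as GNAI2 and GNAQ with the letters NA restored. That list may therefore not lie on a single side. Of 18 antiviral enzymes, APOBEC3B and SAMHD1, a dNTP hydrolase at 0.60, had entries in the authors' deposited table, and SAMHD1 and the thymidine kinase TK1 (0.75) were the 2 of 68 nucleotide genes. Further entries in the authors' deposited table were outside the membership: PTGS2 of 19 prostaglandin genes, DHX33 (-0.57) of 25 RNA helicases and nucleases, and USP18 (0.61), TNFAIP3 (0.56) and USP38 (-0.60) of 50 deubiquitinases.

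**Figure D4:**
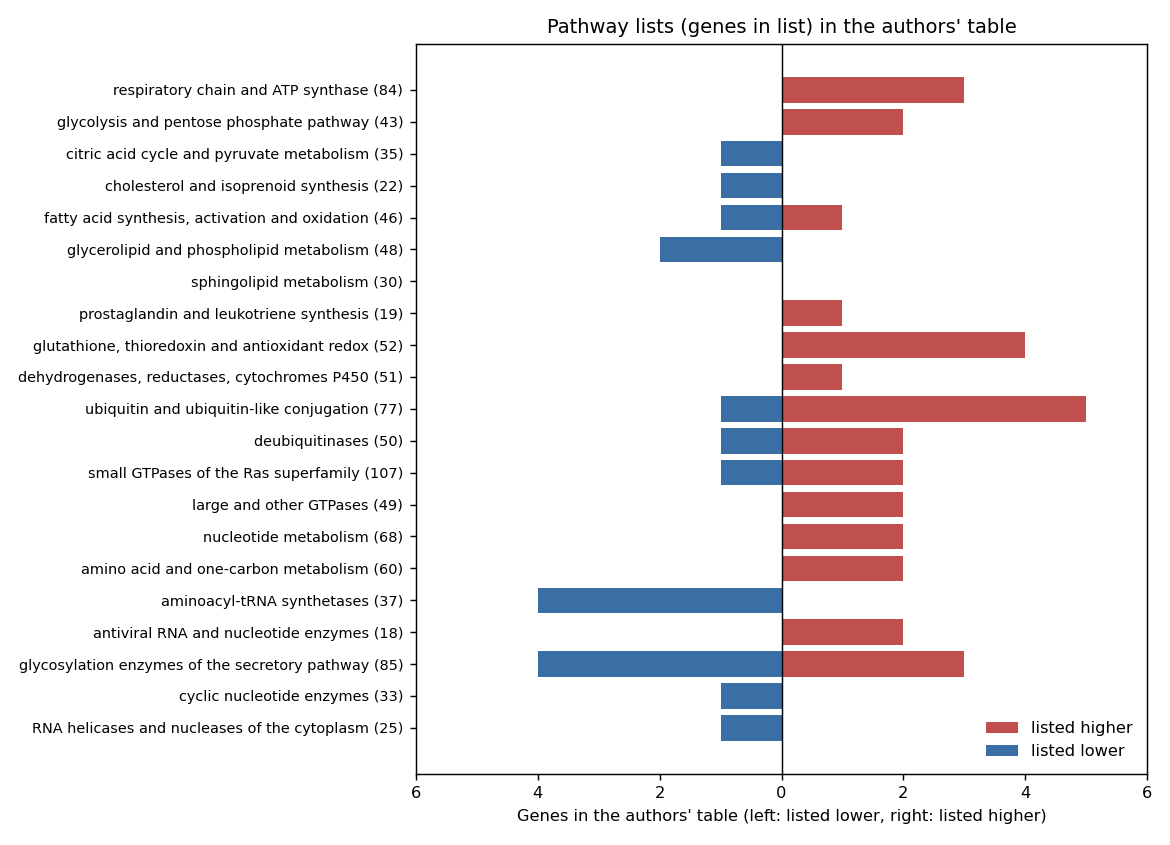
Genes of 21 pathway lists found in the authors' deposited table (x axis, number of genes, listed lower to the left in blue and listed higher to the right in red; list sizes in brackets). The synthetases have 4 genes, all on the left, the antioxidant genes 4, all on the right, and no bar holds more than 5 genes.

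The enzymes listed higher came from shorter genes than those listed lower, as did the other genes of the table. The gene span in RefSeq had a median of 21.8 kb for the 28 enzymes listed higher and 42.2 kb for the 24 listed lower. For the other protein-coding genes of the table the medians were 23.1 kb (324 listed higher) and 62.8 kb (213 listed lower). Spans under 20 kb were those of 14 of the 28 enzymes listed higher and 6 of the 24 listed lower, and of 44.1% of the other genes listed higher and 22.5% of those listed lower. Spans under 10 kb were those of 8 enzymes listed higher, among them NDUFA2 (2.35 kb), COX5B (2.32 kb), GPX4 (2.79 kb) and COX7C (3.02 kb), and of 0 listed lower, where PTRH2 was next at 10.1 kb. Among the other genes, 24.1% of those listed higher and 13.1% of those listed lower were under 10 kb. The log ratio and the span had Spearman's rho of -0.323 over the 52 enzymes and -0.274 over the 537 other genes, as a description across genes that share the same arrays. The part of gene length in the listed values was not tested.

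**Figure D5:**
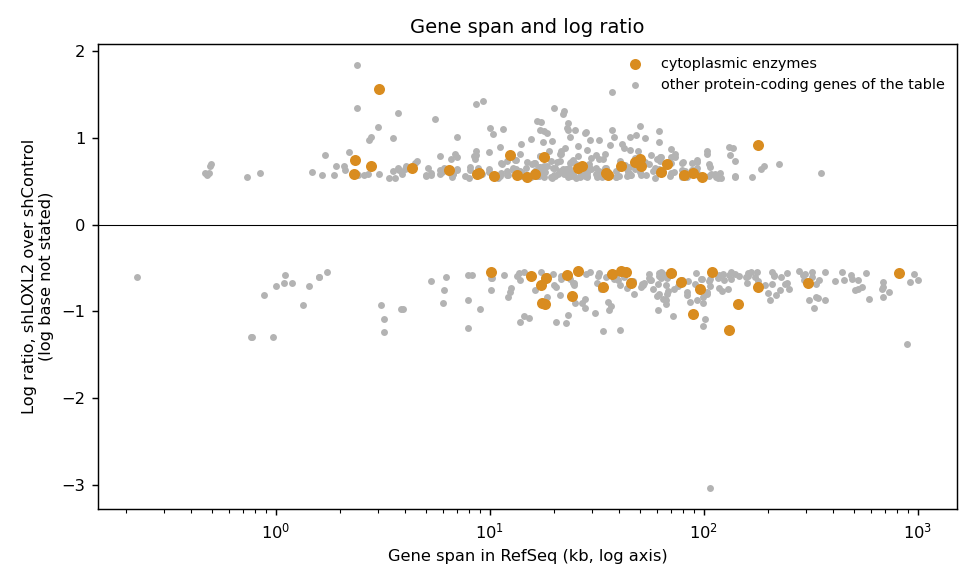
Log ratio in the authors' deposited table (y axis, shLOXL2 over shControl, log base not stated) against gene span in RefSeq (x axis, kb, log axis) for 52 cytoplasmic enzymes (orange) and 537 other protein-coding genes (grey). Under 20 kb, 14 enzymes lie in the upper band and 6 in the lower, and the other genes lie in both bands too.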

How the data were processed

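RNA of 6 arrays was measured, 3 of shLOXL2 and 3 of shControl cells, with groups and replicate numbers from the sample titles. The log2 values of 32321 probe sets were made with RMA, per the submitters' processing notes, with version and probe annotation not given in the sources used here. Median log2 values were 5.74 to 5.82 per array. The log ratio score of each of 724 entries was deposited by the authors in a table exported from Ingenuity Systems software, per the file headers, which state no log base, direction or selection. Decimal commas were converted and a question mark was read as minus, which put the entries in falling order with 0 breaks. Entries of a gene were averaged by the file's name, and 1 gene with entries of both signs and 30 entries without a type were left out, so enzymes among these could not be members. Names followed RefSeq (GRCh38.p14). All 52 members matched, 3 through an older symbol, and 42 had a promoter, of which the first listed was used.

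All probe sets were fitted in limma 3.58.1 (R 4.3.3) with group as the only term and Benjamini-Hochberg adjustment, and tested on simulated data. P-values measure the spread between arrays, which may be technical, and precision is limited by their number. Same-numbered arrays deviated together (correlations of 0.354, 0.452 and 0.160), so these numbers were taken as pairs from the data, and a fit with a replicate block was tried. Arrays of different numbers were not compared in this way, so the pairing is not established and the block fit depends on it. Every member was to be named, but 3 are not reported here by name and enter only the counts, medians and shares. The members, the 12 groups, the 21 lists and the 14 motifs were chosen with earlier results of these data known, the groups after the values were seen, and the motifs after some others had been looked at. Processing was done in Python 3.11.15 and pandas 2.3.3.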

Additional observations from a re-analysis of the deposited data

How the results depend on the processing

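The number of calls by limma was also 1 under quantile normalization, median centring, a filter at the median level, trend and robust moderation, and 1 with the replicate block (2964 at an unadjusted p under 0.05). It was 0 to 0 with any 1 array left out (1063 to 2250 at an unadjusted p under 0.05) and 0 with shControl replicate 1 as the only control array (3975; its spread was taken to equal that of the other arrays); these fits hold fewer arrays. The 1322 probe sets of listed size became 788 at or above the median level, 1339 to 2158 with 1 array left out and 4897 with shControl replicate 1 alone. The filter at the median level kept 16161 of the 32321 probe sets, so its 788 is a count out of fewer. Centring on the median turned 608 higher and 714 lower into 719 and 622. For the enzymes, 28 higher and 24 lower became 13 and 13 among genes at or above the median size of the table, where fewer genes are counted. Their median log ratio, 0.55, lies at the edge of the empty band around 0. It was 0.57 with the left-out genes, 0.57 with current symbols alone and -0.0025 among the larger values. The planned per-array check of each enzyme's direction was not run, since probe sets had no names. What the arrays could detect of differences this small is limited by their number.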

Other observations

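A few of the enzyme genes lie beside another gene of the table. Within 100 kb of an enzyme gene there were 3 such pairs in RefSeq (GRCh38.p14). HARS1 and NDUFA2 lie 26.3 kb apart on chromosome 5 and had opposite signs, -0.90 and 0.74 in the authors' deposited table. PIGS and SPAG5, a mitotic spindle gene, lie 6.0 kb apart on chromosome 17 and also had opposite signs, -0.91 and 0.85 in the authors' deposited table. GBP4 and GBP2 lie 55.0 kb apart on chromosome 1 and were both listed higher, at 0.78 and 0.57 in the authors' deposited table.

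The promoters of the 42 matched enzymes held the GC box GGGCGG in 30 cases (71.4%), against 44.6% of all promoters and 58.5% of the protein-coding ones, with 18 of the 30 listed higher and 12 lower. The STAT element TTCNNNGAA was in 8 (19.0%, against 7.88% of all promoters), the E-box CACGTG in 6 (14.3%, against 7.43%) and the antioxidant element TGACNNNGC in 6 (14.3%, against 13.6%). The YY1 core AAGATGGCG was in 3 (7.14%, against 1.85%), the TEAD site GGAATG in 4 (9.52%, against 14.0%), TATAAA in 2 (4.76%, against 12.0%), the AP-1 site TGACTCA in 1 (2.38%, against 4.92%) and TGACGTCA in 0 (against 1.98%). Among the protein-coding promoters the shares were 6.97% for the STAT element, 8.88% for the E-box and 14.3% for the antioxidant element. They were 2.74% for YY1, 11.7% for TEAD, 9.63% for TATAAA, 3.66% for AP-1 and 2.59% for TGACGTCA. The Ets core was in 13 (31.0%), 8 of genes listed higher and 5 of genes listed lower, and the CCAAT box in 16 (38.1%), 8 on each side. The median GC content was 66.2% in the 22 promoters of enzymes listed higher, 61.5% in the 20 of those listed lower and 62.7% in all protein-coding promoters.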
